A study of Danio rerio with 3 samples.

Results

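This report covers 10 genes of the aryl hydrocarbon receptor (AHR) system and of the antioxidant response in zebrafish larvae. They are the receptor gene ahr2, its repressor ahrra, the cytochrome P450 genes cyp1a, cyp1b1 and cyp1c1, the glutathione and quinone enzyme genes gstp1, nqo1, gclc and gclm, and catalase (cat). The genes were taken by symbol from the deposited expression table, where all 10 were found among 24555 genes. They were chosen by a proposal made with their FPKM values in these 3 libraries in view, so levels and ratios below are a description and carry no test.

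RNA came from whole larvae of the AB strain at 7 days post fertilization, with 30 larvae pooled per group and 1 library per group. The transgenic group, Tg (huc:teton:gal4; tre:serpini1:mkate2), carried a doxycycline-inducible Tet-On driver under the neuronal huC promoter and a responder with serpini1 and the red fluorescent protein mKate2. The knockout group was labelled serpini1-/-, and the sources used here do not give the kind of mutation. The control group was wild type, and larvae of every group, control included, spent days 3 to 7 in medium with 40 µg/mL doxycycline. Since the driver and mKate2 never occur apart from the serpini1 responder, their effects cannot be told apart, and no group went without the drug.

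The AHR is a transcription factor that waits in the cytosol with the chaperone Hsp90 and that binds flat aromatic ligands such as dioxins as well as products of tryptophan. With a ligand bound it enters the nucleus, pairs with Arnt and switches on genes of the CYP1 enzymes and of its own repressor. In zebrafish, Ahr2 is the paralog through which dioxin acts on the embryo, and cyp1a is the standard readout of receptor activity. The antioxidant response is driven by Nrf2 (nfe2l2a in zebrafish), which Keap1 marks for degradation until oxidants or electrophiles modify Keap1. Its targets make glutathione, attach it to toxic compounds and reduce quinones.

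The libraries held about 7980000 fragments (transgenic), 7760000 (knockout) and 7740000 (control), depths that were inferred from the deposited values. Levels are FPKM, mapped fragments scaled by transcript length and library depth. Intervals beside levels and folds are 95% intervals on reads estimated from these depths, and they hold counting error alone, without the spread that further pools of larvae would show. The targeted gene serpini1 stood at 288 FPKM in the transgenic library, 8.05 in the knockout and 20.0 in control, so the knockout library still held its transcript. Markers of liver, skeletal muscle, intestine, epidermis, neurons, endothelium and blood cells were present in each library, and the only marker listed at 0 was the adult globin gene hbaa1 in control. In bulk RNA of whole larvae, a change in the number of cells of a type and a change in RNA per cell cannot be told apart.

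In the transgenic library, cyp1a and gstp1 stood well above the other libraries, cyp1c1 and the low cyp1b1 stood above control by smaller steps, and the other genes lay between 1.04-fold lower and 1.29-fold higher than control. In the knockout library cyp1b1 (2-fold) and gclm (1.57-fold) stood lowest against control, and the other genes lay between 1.17-fold lower and 1.23-fold higher. FPKM is per length, so levels can be compared between genes. The most abundant of the 10 in every library was gstp1, at 236 FPKM in the transgenic, 90.2 in the knockout and 98.1 in the control library, and the least abundant was cyp1b1, at 1.95 FPKM in the transgenic, 0.58 in the knockout and 1.16 in the control library. In control the order ran gstp1, cyp1a, cat, nqo1, gclc, ahr2, gclm with cyp1c1, ahrra and cyp1b1. The counting intervals of neighbours overlapped from cyp1a to cat, from cat to nqo1, from gclc to ahr2 and between gclm and cyp1c1, and the difference between such neighbours was not tested. In the transgenic library cyp1a left this middle group, and its interval touched neither that of gstp1 above it nor that of nqo1 below it. Summed over the 10 genes, the level was 428 FPKM in the transgenic library, 220 in the knockout and 221 in control.

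**Figure D1:**
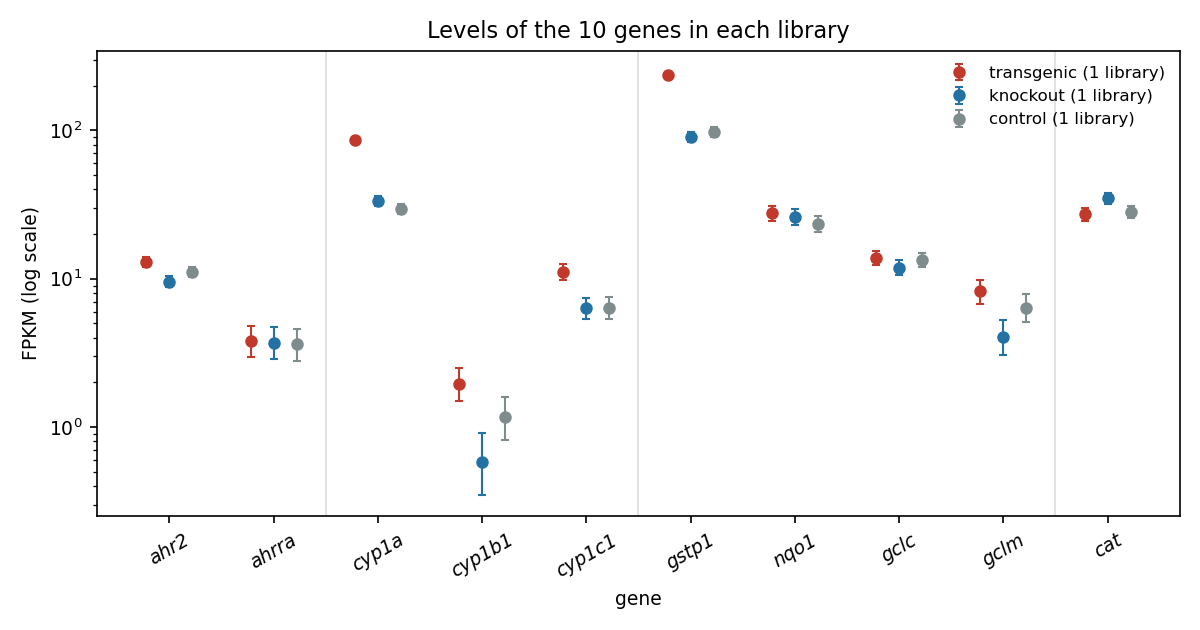
FPKM (log axis) of the 10 genes in the transgenic, knockout and control libraries (1 library each), grouped as receptor and repressor, CYP1 enzymes, glutathione and quinone enzymes, and catalase; bars are 95% Poisson intervals on estimated reads. Cyp1a (85.7 FPKM) and gstp1 (236 FPKM) stand clear of the other libraries in the transgenic library, while ahrra lies between 3.61 and 3.81 FPKM in all of them.

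The receptor gene ahr2 had 13.0 FPKM in the transgenic library, 9.54 in the knockout and 11.1 in control. The transgenic level was 1.17-fold that of control (1.05 to 1.304), and ahr2 was 1.17-fold lower in the knockout than in control (1.03 to 1.31). These steps are small beside those of cyp1a, and 33.5% of all genes compared had a higher transgenic over control ratio than ahr2. The repressor gene ahrra encodes a protein that competes with the receptor for Arnt and is itself induced by the receptor. Its level was 3.81 FPKM in the transgenic library, 3.71 in the knockout and 3.61 in control, which is the narrowest range of the 10 genes. The fold over control was 1.06 in the transgenic (0.743 to 1.501) and 1.03 in the knockout library (0.72 to 1.47), and both intervals include 1.

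The CYP1 enzymes oxidise aromatic compounds and include the classical targets of the receptor. Cyp1a had 85.7 FPKM in the transgenic library (81.7 to 89.9), 33.2 in the knockout (30.7 to 35.9) and 29.6 in control (27.2 to 32.1). The transgenic library was thus high and the other libraries were near each other, the knockout at 1.12-fold control (1.002 to 1.259). The transgenic level was 2.90-fold that of control (2.63 to 3.19) and 2.58-fold that of the knockout (2.35 to 2.83). Among 19242 genes compared between the transgenic and control libraries, the log2 ratio of cyp1a, 1.503 with a pseudocount of 1 FPKM, ranked at place 200 from the top. Its level was above 97.1% of the 24555 genes in the transgenic library and above 92.4% in control.

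Cyp1c1, of a CYP1 subfamily that fish have and mammals lack, had 11.2 FPKM in the transgenic library, 6.35 in the knockout and 6.36 in control. It was 1.75-fold higher in the transgenic library than in control (1.43 to 2.16), and the knockout and control levels were the same within 0.01 FPKM. In RefSeq's gene order for GRCz12tu the next gene is its paralog cyp1c2, which had 3.85 FPKM in the transgenic library, 0.85 in the knockout and 2.74 in control. Reads of these related genes could be split between them, so the single values are less certain. Cyp1b1, an enzyme of eye and neural crest derivatives that also acts on retinoids and steroids, had 1.95 FPKM in the transgenic library (1.502 to 2.49), 0.58 in the knockout (0.349 to 0.906) and 1.16 in control (0.817 to 1.599). The knockout value was 2-fold lower than control (1.12 to 3.68), yet on the scale with a pseudocount the log2 ratio was -0.45. The transgenic value was 1.68-fold that of control (1.104 to 2.59). The level of 0.58 FPKM is the lowest knockout value that the table of all libraries holds. Cyp1b1 passed the floor of 1 FPKM against the knockout only through the other library of each pair. The p-value in the authors' deposited table was 0.000738 for cyp1b1, against 0.0112 computed from the estimated reads, and for cat it was 0.396 against 0.591, so the read numbers and intervals of these genes are less certain. Cyp1a made up 86.7% of the summed FPKM of the 3 enzymes in the transgenic library, 82.7% in the knockout and 79.7% in control.

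Among the glutathione and quinone enzymes the largest step of the transgenic library was that of gstp1. The pi-class glutathione S-transferase gstp1 is a well-known target of Nrf2 in zebrafish larvae. It had 236 FPKM in the transgenic library (224 to 248), 90.2 in the knockout (83.0 to 97.9) and 98.1 in control (90.5 to 106). The transgenic level was 2.40-fold that of control (2.19 to 2.64) and 2.62-fold that of the knockout (2.37 to 2.88), and in the knockout gstp1 was 1.09-fold lower than control with an interval that includes 1 (0.969 to 1.221). In the RefSeq table the same gene is named gstp1.2 and lies beside gstp1.1. How alike their sequences are was not checked. Reads could be split between them, so its single value is uncertain. The deposited table has a second pi-class gene, gstp2, at 18.7 FPKM in the transgenic library, 9.08 in the knockout and 12.8 in control. Whether gstp2 is this neighbour was not checked.

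Nqo1, which reduces quinones and is a target of both Nrf2 and the AHR in mammals, had 27.6 FPKM in the transgenic library, 26.1 in the knockout and 23.5 in control. Its fold over control was 1.17 in the transgenic (0.991 to 1.391) and 1.11 in the knockout library (0.935 to 1.322), and the intervals include 1. Gclc, the catalytic subunit of the enzyme that starts glutathione synthesis, had 13.7 FPKM in the transgenic library, 11.9 in the knockout and 13.5 in control. Its intervals against control include 1 in both libraries, at 1.02-fold in the transgenic (0.872 to 1.191) and 1.13-fold lower in the knockout (0.965 to 1.336). Gclm, the modifier subunit that makes this enzyme more efficient, had 8.22 FPKM in the transgenic library, 4.05 in the knockout and 6.36 in control. It was 1.29-fold higher in the transgenic library than in control (0.97 to 1.73) and 1.57-fold lower in the knockout than in control (1.11 to 2.24). Between the transgenic and knockout libraries the step was 2.03-fold (1.46 to 2.85). Per length, the ratio of gclc to gclm was 1.67 in the transgenic library, 2.93 in the knockout and 2.12 in control.

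Catalase breaks down hydrogen peroxide in peroxisomes and is the 1 gene of the 10 whose lowest level was in the transgenic library. It had 27.1 FPKM in the transgenic library, 34.8 in the knockout and 28.2 in control. The knockout level was 1.23-fold that of control (1.08 to 1.41, on the less certain read number), and the transgenic level was 1.04-fold lower than control with an interval that includes 1 (0.905 to 1.193). The transgenic level was 1.28-fold lower than that of the knockout (1.12 to 1.46).

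A gene was counted as higher or lower when its log2((FPKM + 1)/(FPKM + 1)) was at least 1 in size, which is a 2-fold difference on that scale, among genes that reached 1 FPKM in at least 1 library of the pair. With 1 library per group this rule is not a test. In the transgenic library against control, 2 of the 10 genes were higher by it, cyp1a and gstp1 (log2 ratio 1.26), and 0 were lower. Of all 19242 genes compared, 3.56% were higher and 1.26% lower. The median log2 ratio of the 10 genes was 0.27, against 0.03 for all genes, and 9 of the 10 ratios lay above 0, against 52.5% of all genes. In the knockout against control, 0 of the 10 genes were past the rule, where 0.798% of 18663 genes were higher and 0.664% lower. These 18663 leave out 217 genes with at least 1 FPKM in control but no knockout value, so the share lower may be too small. Every share that uses the knockout library has the same gap. The median of the 10 was -0.06 against -0.03 for all genes, and 6 of the 10 lay below 0, against 54.4% of all genes. None of the 10 was among the 266 genes of the authors' deposited table of knockout differences.

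In the transgenic against the knockout library, 2 of the 10 genes were again higher, cyp1a (log2 ratio 1.34) and gstp1 (1.38), with 2.86% of 18775 genes higher and 1.08% lower. Cyp1b1 (0.90) and gclm (0.87) came just under the rule, and without the pseudocount their log2 ratios were 1.75 and 1.02. The transgenic library had the highest of the 3 levels for 9 of the 10 genes, against 41.2% of all genes, and the knockout had the lowest for 6 of them, against 33.3%. Since the genes were chosen with these values known, nothing is read from these shares.

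**Figure D2:**
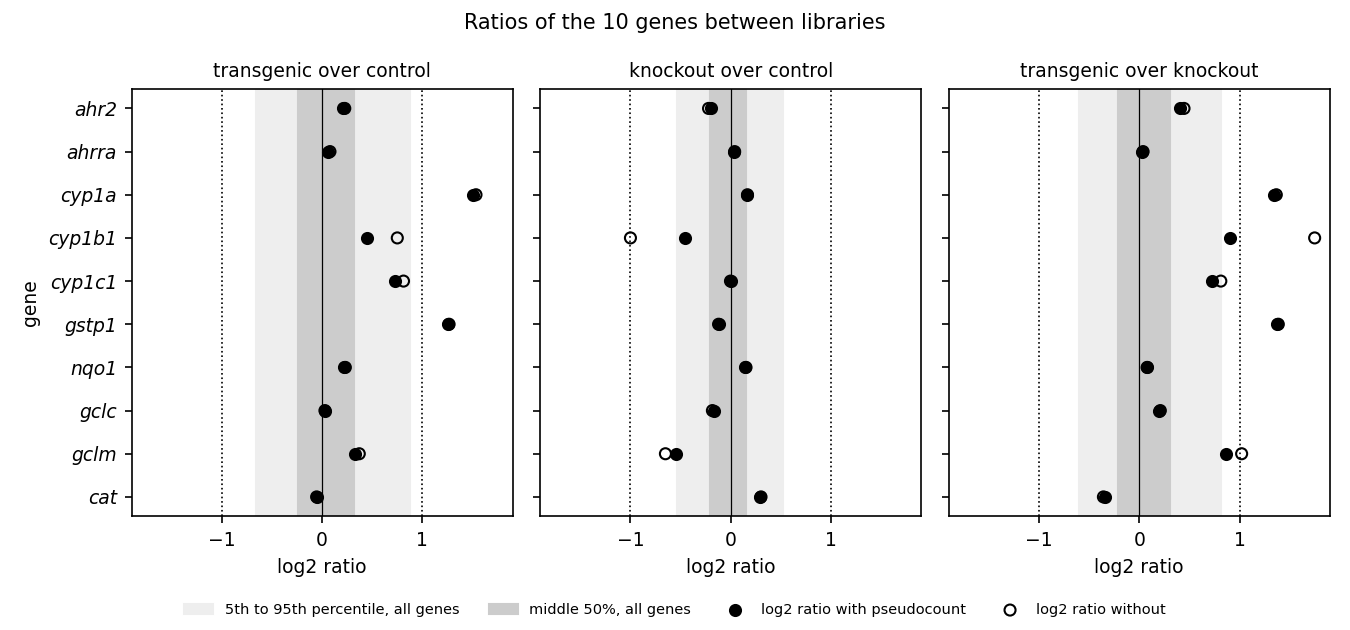
Log2 ratios of the 10 genes for transgenic over control, knockout over control and transgenic over knockout; filled points use a pseudocount of 1 FPKM, open points none, grey bands show the middle 50% and the 5th to 95th percentile of all genes compared, and dotted lines mark the 2-fold rule. Cyp1a and gstp1 lie past the line in both comparisons of the transgenic library, and the open point of cyp1b1 departs most from its filled one.

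Of 14 listed genes of the complex and its regulators, 12 could be compared between the transgenic and control libraries. Of these, 0 were past the rule in either direction, with a median log2 ratio of 0.13. All genes compared had 3.56% higher and 1.26% lower, with a median of 0.03. The other receptor genes were low, with ahr1b at 1.97 FPKM in the transgenic library, 3.48 in the knockout and 3.13 in control. Ahr1a, at 0.54 FPKM in the transgenic and 0.73 in the control library, was under the floor. The partner genes arnt and arnt2 stood at 3.88 and 12.4 FPKM in the transgenic library, 4.17 and 17.7 in the knockout, and 4.41 and 18.5 in control. Arnt2, which is expressed mainly in neurons and kidney, was 1.496-fold lower in the transgenic library than in control (1.27 to 1.77). The Hsp90 genes hsp90aa1.1 and hsp90aa1.2 reached 1.93 times (1.72 to 2.16) and 1.899 times (1.72 to 2.096) their control level in the transgenic library, just under the rule. The more abundant Hsp90 gene hsp90ab1 stood at 1738 FPKM in the transgenic, 1606 in the knockout and 1728 in the control library. Against the knockout, hsp90aa1.1 and hsp90aa1.2 were the 2 genes of this list past the rule, at 2.30-fold (2.04 to 2.59) and 2.11-fold (1.91 to 2.34). In that comparison 2.86% of all genes were higher and 1.08% lower. In the knockout against control the list had 0 genes past the rule and a median of -0.13. All genes compared there had 0.798% higher and 0.664% lower, with a median of -0.03.

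Of 16 listed AHR target genes 15 could be compared, and cyp1a was the 1 gene past the rule in the transgenic library against control. The list holds 5 of the 10 genes, and the other 10 genes compared had 0 past the rule in either direction and a median log2 ratio of 0.25. Of these other genes 8 lay above 0, against 52.5% of all genes. Over all genes compared, 3.56% were higher and 1.26% lower, with a median of 0.03. Tiparp, an ADP-ribosyltransferase that limits receptor activity and is induced by it, had 17.8 FPKM in the transgenic library, 13.3 in the knockout and 15.3 in control. Cyp1d1, another CYP1 gene of the list, had 8.11 FPKM in the transgenic library, 6.79 in the knockout and 4.52 in control, and was 1.79-fold higher in the transgenic library than in control (1.35 to 2.40). Whether the receptor raises cyp1d1 and each other listed gene in zebrafish was not checked. The glucuronosyltransferase gene ugt1a7 stood at 11.6 FPKM in the transgenic library, 8.85 in the knockout and 6.97 in control. The 2 listed targets below 0 in the transgenic library against control were foxq1b and aldh3a1. Foxq1b was 1.31-fold lower (1.02 to 1.68) and aldh3a1 was 1.24-fold lower (0.918 to 1.69), the latter with an interval that includes 1. In the knockout against control, cyp1c2 was the 1 target past the rule, 3.22-fold lower (1.74 to 6.36), and 0 were higher. Of all genes compared there, 0.664% were lower and 0.798% higher. The log2 ratio of cyp1c2 was -1.02, just past the rule. At 0.85 FPKM in the knockout, cyp1c2 passed the floor of 1 FPKM only through the other library of each pair. Cyp1c2 was also the gene that joined cyp1a past the rule in the transgenic against the knockout library, at 4.53-fold (2.52 to 8.74). Of all genes compared between these libraries, 2.86% were higher and 1.08% lower.

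Regulators of the antioxidant response went both ways. Of 17 compared, 0 were higher and 1 was lower in the transgenic library against control, with a median of 0.01. All genes compared had 3.56% higher and 1.26% lower, with a median of 0.03. In the knockout against control 0 regulators were past the rule, where 0.798% of all genes were higher and 0.664% lower. Nfe2l2a, which encodes Nrf2, had 56.1 FPKM in the transgenic library, 43.3 in the knockout and 45.7 in control, a 1.23-fold step between the transgenic and control libraries (1.14 to 1.31). Keap1a had 7.39 FPKM in the transgenic library, 5.20 in the knockout and 4.29 in control, and was 1.72-fold higher in the transgenic library than in control (1.33 to 2.25). Keap1b, the other copy of the inhibitor, had 21.9 FPKM in the transgenic library, 18.2 in the knockout and 22.8 in control. The gene past the rule was mafga, a small Maf partner of Nrf2, which was low in every library, at 0.51 FPKM in the transgenic, 1.25 in the knockout and 2.19 in control. Mafga was 4.29-fold lower in the transgenic library than in control, with a wide interval (1.18 to 23.5). The paralog of mafga, mafgb, at 1.14 FPKM in the transgenic library, 2.57 in the knockout and 2.36 in control, was 2.07-fold lower in the transgenic library than in control (1.21 to 3.63).

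Among 25 target genes of Nrf2 compared in the transgenic library against control, 5 were higher and 0 lower, with a median of 0.33. Without the 4 genes that also belong to the 10 described here, the count was 4 of 21 with a median of 0.52. Of all 19242 genes compared, 3.56% were higher and 1.26% lower, with a median of 0.03. The list was chosen with earlier results known, so nothing is read from these shares. Ptgr1, which reduces reactive aldehydes and prostaglandin derivatives, had 17.6 FPKM in the transgenic library, 4.63 in the knockout and 3.23 in control, a 5.44-fold step over control (3.65 to 8.37). Thioredoxin (txn), the small protein that reduces disulfides, had 101 FPKM in the transgenic library, 23.5 in the knockout and 28.5 in control, or 3.54-fold over control (2.92 to 4.33). The peroxiredoxin gene prdx1 had 45.0 FPKM in the transgenic library, 10.8 in the knockout and 16.3 in control. The malic enzyme gene me1, which supplies NADPH, had 7.67 FPKM in the transgenic library, 2.78 in the knockout and 2.79 in control. These genes were high in the transgenic library together with gstp1, whereas nqo1, gclc and gclm of the same list were not past the rule. Of the 25 ratios over control, 17 lay above 0 and 8 below, where 52.5% of all genes lay above 0. Among those below 0, LOC557518 was 1.75-fold lower in the transgenic library than in control (1.57 to 1.97). Abcc1 was 1.70-fold lower (1.40 to 2.07) and zgc:92066 was 1.35-fold lower (1.27 to 1.43).

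In the knockout library, 2 of 25 Nrf2 targets were lower than control and 0 higher, against 0.664% and 0.798% of all genes. Of the 25 ratios, 21 lay below 0, against 54.4% of all genes, with a median of -0.26 against -0.03 for all genes. Macrophage markers (14 of 15) and neutrophil markers (13 of 14) also lay below 0 in the knockout, and their part in the lower Nrf2 targets was not tested. Glutathione synthetase (gss), which adds the last amino acid of glutathione, had 1.55 FPKM in the knockout and 4.24 in control, 2.74-fold lower (1.65 to 4.68). The heme oxygenase gene hmox1a had 3.43 FPKM in the knockout and 8.06 in control, 2.35-fold lower (1.56 to 3.60). Gclm, gclc and gstp1 lay below 0 with them, by smaller steps, and nqo1 lay above 0. Between the transgenic and knockout libraries 8 of 24 listed targets were higher and 0 lower, against 2.86% and 1.08% of all genes. Their median was 0.87 against 0.04 for all genes. The higher targets were led by txn at 4.29-fold (3.48 to 5.33), prdx1 at 4.18-fold (3.34 to 5.28) and ptgr1 at 3.79-fold (2.69 to 5.46).

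**Figure D3:**
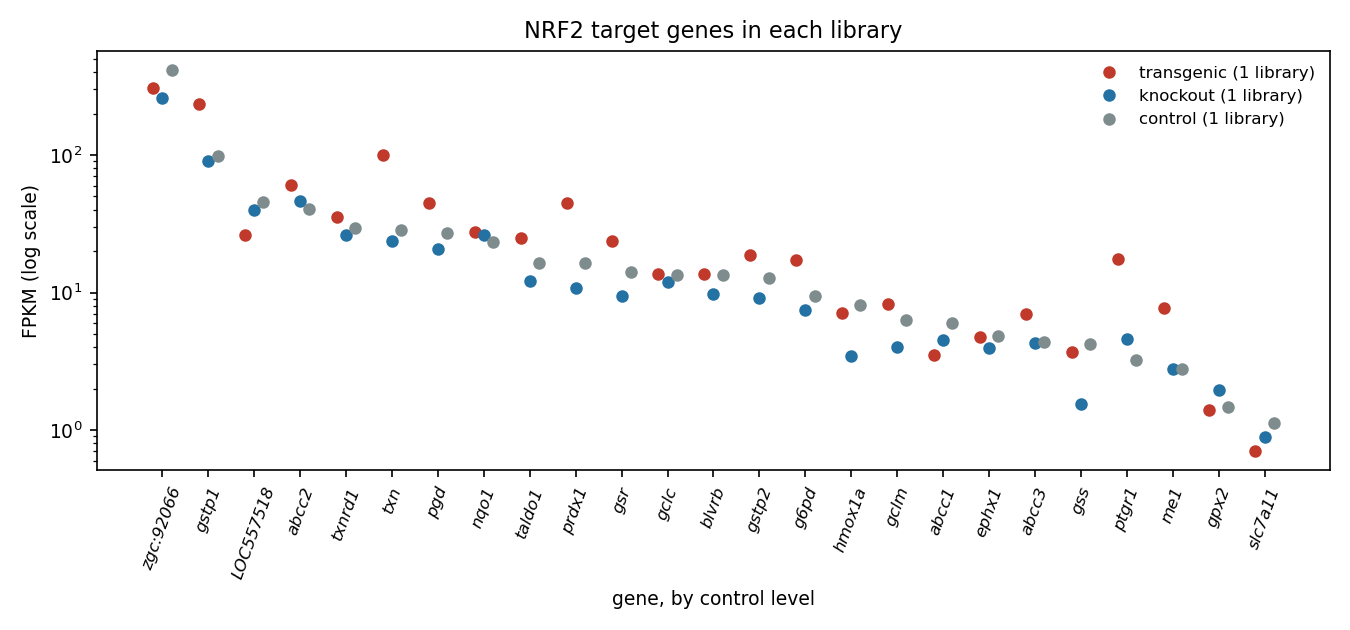
FPKM (log axis) of the listed Nrf2 target genes with a value in the transgenic, knockout and control libraries (1 library each), in order of the control level. Txn, prdx1, ptgr1, me1 and gstp1 stand apart in the transgenic library, while gss and hmox1a stand apart in the knockout.

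Of 15 genes of glutathione synthesis and recycling, 0 were past the rule in the transgenic library against control, with a median of 0.12, and 2 were past it with a pseudocount of 0.1 FPKM. Closest to the rule was ggt1b, a gamma-glutamyltransferase, with 6.79 FPKM in the transgenic library, 5.12 in the knockout and 2.91 in control, 2.33-fold higher in the transgenic library than in control (1.67 to 3.31). Glutathione reductase (gsr) had 23.9 FPKM in the transgenic library, 9.37 in the knockout and 14 in control. Among 20 glutathione S-transferase genes, 2 were higher in the transgenic library, gstp1 and the microsomal transferase mgst3b (by its RefSeq symbol), and 0 were lower. Of the 20 ratios 17 lay above 0, with a median of 0.40. Over all genes compared, 3.56% were higher, 1.26% lower and 52.5% above 0, with a median of 0.03. Mgst3b had 125 FPKM in the transgenic library, 53.6 in the knockout and 58.3 in control, a 2.15-fold step over control (1.92 to 2.41). In the knockout, where 0.798% of all genes were higher than control, mgst1.1 was the 1 transferase past the rule, 2.81-fold higher (1.56 to 5.32). It had 5.13 FPKM in the transgenic library, 6.29 in the knockout and 2.24 in control. The mu-class gene gstm.3 had 7.81 FPKM in the knockout and 16.2 in control, 2.08-fold lower (1.49 to 2.92).

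Catalase was set beside other peroxide and superoxide enzymes and beside peroxisome genes. Of 28 peroxide and superoxide genes compared, txn and prdx1 were higher in the transgenic library against control and 0 were lower, with a median of 0.27. All genes compared had 3.56% higher and 1.26% lower, with a median of 0.03. The superoxide dismutase genes sod1 and sod2 stood at 117 and 49.4 FPKM in the transgenic library, 109 and 37.3 in the knockout, and 96.8 and 34.7 in control. In the knockout, where 0.664% of all genes were lower than control, the 1 gene of this list past the rule was si:ch73-111m19.2 (gpx9 in RefSeq), 3.14-fold lower (1.99 to 5.08). Of 28 peroxisome genes, catalase among them, 0 were past the rule in any of the comparisons, with medians of -0.01 for transgenic over control and 0.11 for knockout over control. Other genes of this list with a knockout level above control, as for catalase, were hsd17b4, an enzyme of peroxisomal fatty acid oxidation, at 44.2 FPKM in the knockout and 32.5 in control, and phyh, which oxidises phytanic acid, at 32.3 FPKM in the knockout and 22.5 in control; they were picked after their values were seen.

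Other listed genes of xenobiotic metabolism went both ways. The list shares ephx1 with the Nrf2 targets, and whether the AHR or Nrf2 acts on its other genes was not checked. Of 34 compared in the transgenic library against control, 6 were higher and 1 was lower, with a median of 0.15. The values for all genes were 3.56% higher, 1.26% lower and a median of 0.03. Sult1st1, a sulfotransferase, had 24.4 FPKM in the transgenic library, 7.21 in the knockout and 6.90 in control, and the glucuronosyltransferase ugt2a1 had 8.60 FPKM in the transgenic library, 1.35 in the knockout and 2.40 in control. Cyp2aa4 was listed at 0 in control and had 2.66 FPKM in the transgenic and 1.49 in the knockout library. This made it the 1 gene of the list past the rule in the knockout, against 0.798% of all genes higher there. The gene on the lower side was nr1i2, the pregnane X receptor of drug metabolism, with 2.92 FPKM in the transgenic library, 4.23 in the knockout and 9.16 in control. Its target in the gut, cyp3a65, had 251 FPKM in the transgenic library, 394 in the knockout and 419 in control.

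**Figure D4:**
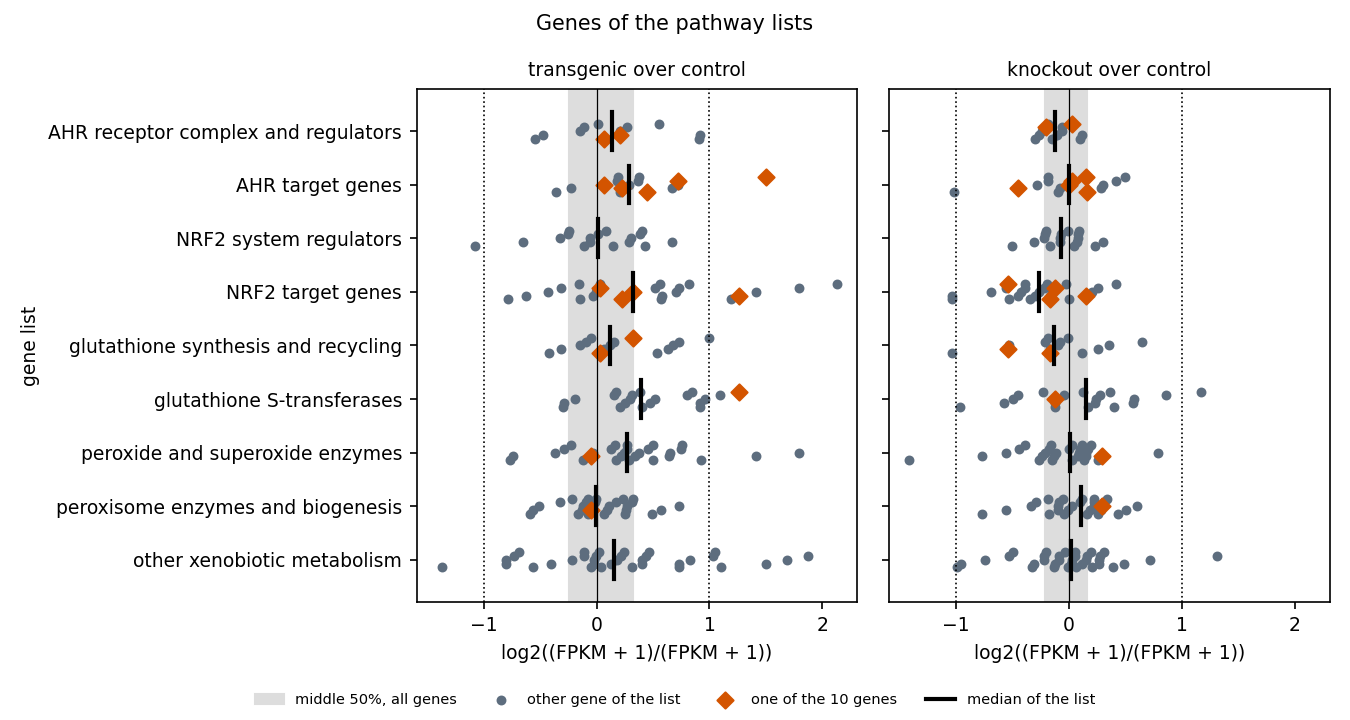
Log2 ratios with a pseudocount of 1 FPKM for each gene of the 9 pathway lists, transgenic over control (left) and knockout over control (right); orange diamonds are genes of the 10 described, black bars are list medians, the grey band is the middle 50% of all genes compared and dotted lines mark the 2-fold rule. Nrf2 targets reach from -0.79 to 2.13 in the transgenic library, and Nrf2 regulators from -1.08 to 0.67.

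Markers of several cell types moved between the same libraries. Of all genes compared in the transgenic library against control, 3.56% were higher, 1.26% lower and 52.5% above 0. For the knockout against control, 54.4% of all genes lay below 0. In the transgenic library against control, 2 of 18 liver markers were higher by the rule and 15 lay above 0. The 17 with a value in every library summed to 6977 FPKM in the transgenic, 5712 in the knockout and 4922 in the control library. Fabp10a, a fatty acid binding protein of hepatocytes, had 2743 FPKM in the transgenic, 2393 in the knockout and 1989 in the control library, and the apolipoprotein gene apoa2 had 1443 FPKM in the transgenic, 1130 in the knockout and 912 in the control library. The liver sum was 1.42-fold that of control in the transgenic library, where the markers past the rule were the transferrin gene tfa at 2.71-fold (2.62 to 2.80) and the fibrinogen gene fgb at 2.33-fold (2.14 to 2.54). Macrophage markers had 6 of 18 higher by the rule and 18 of 18 above 0, and 16 of them summed to 176 FPKM in the transgenic, 40.0 in the knockout and 68.1 in the control library. Their most abundant genes in control were coro1a and ctss2.1. Coro1a had 27.0 FPKM in the transgenic, 8.46 in the knockout and 12.95 in the control library, and ctss2.1 had 16.2 FPKM in the transgenic, 3.50 in the knockout and 8.61 in the control library. Of 14 neutrophil markers compared, 6 were higher and 1 was lower in the transgenic library against control, and 13 lay below 0 in the knockout against control. They summed to 1163 FPKM in the transgenic, 1449 in the knockout and 1399 in the control library. Most of that sum was the carboxypeptidase gene cpa5, at 606 FPKM in the transgenic, 1346 in the knockout and 1262 in the control library. Cpa5 was the 1 lower gene in the transgenic library and the 1 gene above 0 in the knockout. This sum thus does not follow the rest of the list and is no measure of neutrophils. The lysozyme gene lyz had 60.0 FPKM in the transgenic, 34.7 in the knockout and 36.4 in the control library. Without cpa5, left out after the values were seen, the neutrophil sum was 558 FPKM in the transgenic, 103 in the knockout and 137 in the control library, and mmp13a, mmp9 and lect2l, at 121, 124 and 115 FPKM in the transgenic library, stood at 3.36, 3.21 and 12.1 in the knockout and 4.78, 5.16 and 21.6 in control.

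Of 14 erythrocyte markers compared 2 were higher, and 13 of them summed to 1978 FPKM in the transgenic, 896 in the knockout and 1384 in the control library. Hbae3 and hbbe1.1, globin genes of the larva, had 656 and 543 FPKM in the transgenic, 281 and 143 in the knockout and 477 and 415 in the control library. Of 13 erythrocyte markers compared between the knockout and control, 8 lay below 0 and 5 above, where 54.4% of all genes lay below 0. By the rule 1 was higher and 2 were lower. The higher one was hbae1, at 3.15-fold control (1.69 to 6.24), and si:ch211-5k11.12 stood at 1.02-fold (0.930 to 1.11). The lower knockout sum thus does not hold for every gene of this list. Epidermal markers had 5 of 20 higher in the transgenic library against control. They summed to 9115 FPKM in the transgenic, 11775 in the knockout and 10054 in the control library, led by the keratin genes krt91 and krt4. Intestine markers had 1 of 16 higher and a sum of 2127 FPKM in the transgenic, 2492 in the knockout and 2448 in the control library, led by pck1 and fabp6. In the transgenic library against control, 13 of 20 epidermal and 9 of 16 intestine markers lay above 0, against 52.5% of all genes. Both sums were lower in the transgenic library than in control, so they do not follow most genes of their lists. Endothelial, neuronal and skeletal muscle markers had 0 genes past the rule. Their sums were 150, 659 and 42352 FPKM in the transgenic, 119, 764 and 41121 in the knockout, and 137, 779 and 39001 in the control library. In the transgenic library against control, 18 of 22 neuronal markers lay below 0 and 4 above, with a median of -0.24. Against the knockout, 22 of 22 lay below 0. Of all genes, 47.2% and 45.7% lay below 0 in these comparisons. Of 19 endothelial and 19 muscle markers, 11 and 12 lay above 0 in the transgenic library against control. The part of these cell types in the levels of cyp1a, gstp1 and the other genes was not tested.

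Among 8666 genes with at least 5 FPKM in all 3 libraries, the genes whose pair of log2 ratios (transgenic over control, knockout over control) lay closest to that of cyp1a by Euclidean distance were pdia4 (distance 0.03), caspb (0.05) and sst2 (0.07). Pdia4, a disulfide isomerase, had 18.4 FPKM in the transgenic library, 6.41 in the knockout and 5.71 in control. Closest to gstp1 were agt (0.06), si:ch211-5k11.2 (0.07) and dap1b (0.07). Agt, the angiotensinogen gene, had 44.5 FPKM in the transgenic library, 17.4 in the knockout and 18.8 in control. These distances rest on 3 libraries.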

How the data were processed

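Values were taken from 3 tables. The authors deposited FPKM per gene, rounded to 2 decimals, per the file headers. A deposited table of the transgenic against the control library adds gene length, a log2 fold change, a p-value and a false discovery rate per gene, and a second one holds the 266 genes of the knockout comparison, per the file headers. These p-values compare 1 library with 1 and served to infer depth and to check estimated reads. The table of all libraries ends within a line, at 0.58 FPKM in the knockout, so 4816 of the 24555 joined genes have no knockout value. The submitters' processing notes name HISAT, StringTie and DESeq2 and the build GRCz11, without their roles or settings.

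An FPKM of 0.01 in the comparison tables was read as 0. Depth came from genes listed at 0 in control: under a Poisson comparison their p-values fix whole reads (991 and 15 genes, 100% within 0.05 of a whole number), and 71 genes with at least 10 reads gave the depth, with a length offset of 100 bases and a coefficient of variation of 3.84%. Intervals for folds are Clopper-Pearson and those for levels are exact Poisson, from reads rounded to whole numbers (Python 3.11.15, scipy 1.17.1). PCR reads are not independent molecules. Depth inference and the 2-fold rule were checked on simulated data made under the same Poisson model. That check cannot show whether the deposited values follow the model.

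The 10 genes, the pathway and marker lists and the rule for named genes were chosen with earlier results of these data known. That rule names all 10 genes, in each list up to 4 genes per direction past the 2-fold rule, the regulators of both systems, the 3 genes most like cyp1a and gstp1, and the 2 markers of a list most abundant in control. Other genes named for their function were chosen after their values were seen. Of 353 listed symbols, 324 matched the deposited symbols, 18 RefSeq symbols and 3 RefSeq synonyms of GRCz12tu, and 8 were not matched.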

Additional observations from a re-analysis of the deposited data

How the results depend on the processing

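With 1 library per group no replicate could be left out. No paired analysis was possible because each group has a single library and no result comes from a test. Each result was recomputed with pseudocounts of 0.1 and 5 FPKM, a floor of 5 FPKM or none, scaling to a median ratio of 1 and a 1.5-fold rule. Counts and medians of the 10 genes for transgenic over control and knockout over control stayed within 1.5 times the count given or within counting error. For transgenic over knockout, the 2 higher genes became 4 with a pseudocount of 0.1 FPKM, which lets low genes count, and 5 under the laxer 1.5-fold rule, and the median of 0.57 became 0.31 with a pseudocount of 5 FPKM, which shrinks ratios of low genes. A floor leaves the ratio of a single gene unchanged. Of 144 recomputed log2 ratios, 24 with a floor of 5 FPKM and 30 with no floor thus could not move. All 144 moved by less than the counting error of the ratio, which was not a check against the ends of the printed intervals. Scaling turned the sign of 3 of them near 0, at 0.03 for cyp1c1 in the knockout over control, -0.00119 for gclc in the transgenic over control and -0.01 for ahrra in the transgenic over knockout. Of 648 list counts recomputed under alternatives chosen after the data were seen, 545 stayed within 1.5 times the count given and 103 did not. Many of the counts given were 0, and a 0 that stayed 0 is among the 545. That share is thus no measure of how stable the list counts are. Depth limits cyp1b1 most, and the promoter motif search planned for these genes was not run.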
